A study of Homo sapiens with 12 samples.

Results

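The distribution of 7 long noncoding RNA genes between whole-cell and cytoplasmic RNA was examined in 2 human cell lines that differ in the RS domain of the coactivator PGC-1α. The genes were chosen by name as RNAs known to stay in the nucleus or to reach the cytoplasm: MALAT1, NEAT1, KCNQ1OT1, TUG1, OIP5-AS1, NORAD and DANCR. Each was matched to its gene identifier, and all of its transcripts were taken, which gave 7 of the 61860 genes and 72 of the 251121 transcripts in the deposited table. TUG1 is typed as protein-coding in GENCODE release 44, and the other members are typed as lncRNA. Both lines derive from Flp-In T-REx 293, a human embryonic kidney cell line with a single integration site and an inducible promoter. Both were treated with doxycycline for 6 days, which induced miRNAs against the endogenous PGC-1α together with a miRNA-resistant, FLAG-tagged copy. That copy was wild type in WT-res cells and lacked the RS domain in ΔRS-res cells. Whole-cell RNA and the cytoplasmic RNA of a hypotonic lysate were depleted of ribosomal RNA and sequenced from 3 consecutive passages of each line, giving 4 groups of 3 libraries. Each line was a selected clone, so a difference between lines cannot be told apart from a difference between clones.

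Long noncoding RNAs are transcribed, capped and usually polyadenylated like mRNAs, but are not known for a protein product. MALAT1 accumulates in nuclear speckles, domains rich in splicing factors, and NEAT1 is the scaffold of paraspeckles. KCNQ1OT1 is an imprinted antisense RNA that silences genes in cis on its chromosome. TUG1 has been described in both compartments, and its unspliced forms in the nucleus. OIP5-AS1 (cyrano) is a conserved RNA that directs the decay of a microRNA, NORAD sequesters Pumilio proteins in the cytoplasm, and DANCR is a short spliced RNA whose gene hosts a small nucleolar RNA.

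The libraries held between 90333190 and 144628005 counted fragments. PPARGC1A, the targeted gene, whose counts can hold the endogenous and the introduced copy, was at 552 to 682 CPM (counts scaled to a common library size) in 5 WT-res libraries and at 296 to 486 CPM in the 6 ΔRS-res libraries. The whole-cell library labelled WT-res replicate 3 stood apart from the other WT-res libraries, with PPARGC1A at 487 CPM, at the upper edge of the ΔRS-res range. In the same library DDX19B, a gene whose counts separated the other libraries by line, had 21 counts, against 1140 to 2059 in the other 5 WT-res libraries and 27 to 45 in ΔRS-res, and SDHA, another such gene, had 35397, against 6598 to 10687 and 34207 to 50189. For these genes the library was thus close to the ΔRS-res libraries and far from the other WT-res libraries, for a reason that was not tested. It was kept under its label, and the main results that rest on it are also given without it. The kidney developmental genes PAX2 and LHX1 were detected in every library at up to 5.81 and 4.01 CPM, and PTPRC, CD3E, ALB, KRT5 and NPHS1, markers of blood, liver, keratinocytes and podocytes, had at most 20 counts in any library. The 13 mitochondrially encoded mRNAs were all lower in cytoplasmic RNA of both lines, with median log2 differences of -3.51 and -3.21, while of 5 further fractionation checks 3 and 2 were higher, among them GAPDH mRNA by 0.43 (adjusted p = 0.00694) and 0.42 (adjusted p = 0.00216). Of these checks, the nuclear small RNA RN7SK differed by -0.32 (adjusted p = 0.0977) in WT-res and -0.31 (adjusted p = 0.0591) in ΔRS-res, below the threshold in both.

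The members spanned a range from depleted to slightly enriched in cytoplasmic RNA. For each replicate number the log2 ratio of cytoplasmic over whole-cell CPM was taken, so that 0 means the same proportion of both libraries and not the same number of molecules per cell. In these bulk libraries fewer cells with an RNA and less of it per cell cannot be told apart. The study's sample sheet ties the fractions of 1 number to a shared cell pellet, while its methods describe separate wells. In WT-res the numbers did not pair the fractions by the data, and its SDs depend on which libraries share a number. KCNQ1OT1 was lowest, with mean log2 ratios of -1.90 ± 0.24 (SD, n = 3) in WT-res and -1.56 ± 0.24 in ΔRS-res, which is 0.268 and 0.339 of its whole-cell level. NEAT1 followed at -1.54 ± 0.40 and -1.50 ± 0.042, then MALAT1 at -0.68 ± 0.81 and -0.40 ± 0.22, and TUG1 at -0.37 ± 0.12 and -0.33 ± 0.11. DANCR lay at -0.00 ± 0.30 and 0.01 ± 0.16, and OIP5-AS1 at 0.12 ± 0.34 and 0.06 ± 0.074. NORAD was highest at 0.31 ± 0.068 and 0.35 ± 0.034. Over WT-res pairs 1 and 2 alone, without the whole-cell library labelled WT-res replicate 3, the means were -1.77 for KCNQ1OT1, -1.34 for NEAT1, -0.29 for MALAT1, -0.31 for TUG1, -0.15 for DANCR, 0.24 for OIP5-AS1 and 0.28 for NORAD, so that MALAT1 and TUG1 changed places. Neighbours in this order were not all separated: KCNQ1OT1 was below NEAT1 in 5 of 6 pairs, MALAT1 below TUG1 in 4, DANCR below OIP5-AS1 in 3 and OIP5-AS1 below NORAD in 5, whereas NEAT1 was below MALAT1 and TUG1 below DANCR in all 6.

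**Figure D1:**
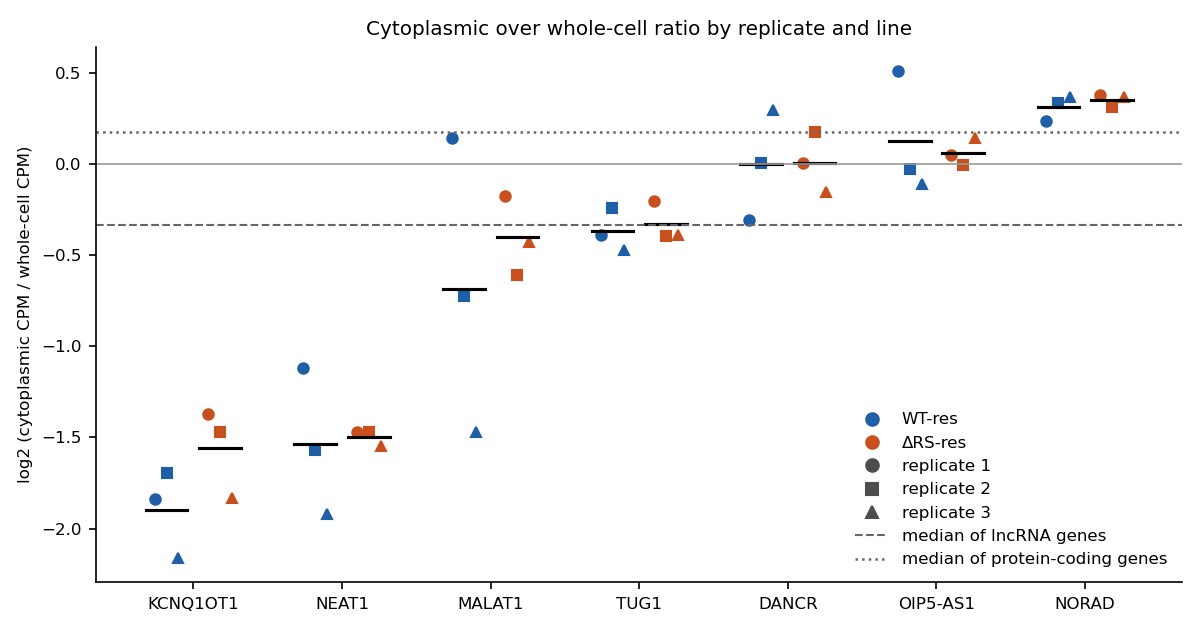
Log2 ratio of cytoplasmic over whole-cell CPM (vertical axis) for each of the 7 members, with 1 point for each replicate pair of WT-res and ΔRS-res, a bar at the mean of 3 pairs, and lines at the medians of lncRNA and protein-coding genes. All KCNQ1OT1, NEAT1 and TUG1 points lie below 0 and all NORAD points above it, while the MALAT1 points of WT-res spread from -1.47 to 0.14.

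As a background, 1552 lncRNA genes with a mean of at least 100 counts had a median log2 ratio of -0.33, and 70.2% of them were below 0. The 12701 protein-coding genes had a median of 0.17, with 35.0% below 0. KCNQ1OT1 and NEAT1 sat low among lncRNA genes, with 8.57% and 11.7% of them at a lower ratio. MALAT1 and TUG1 lay in the middle, with 38.8% and 49.4% below them, although MALAT1 is known as a nuclear RNA. DANCR and OIP5-AS1 had 70.5% and 76.6% of lncRNA genes below them. NORAD was high, with 92.7% of lncRNA genes and 73.0% of protein-coding genes below it.

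**Figure D2:**
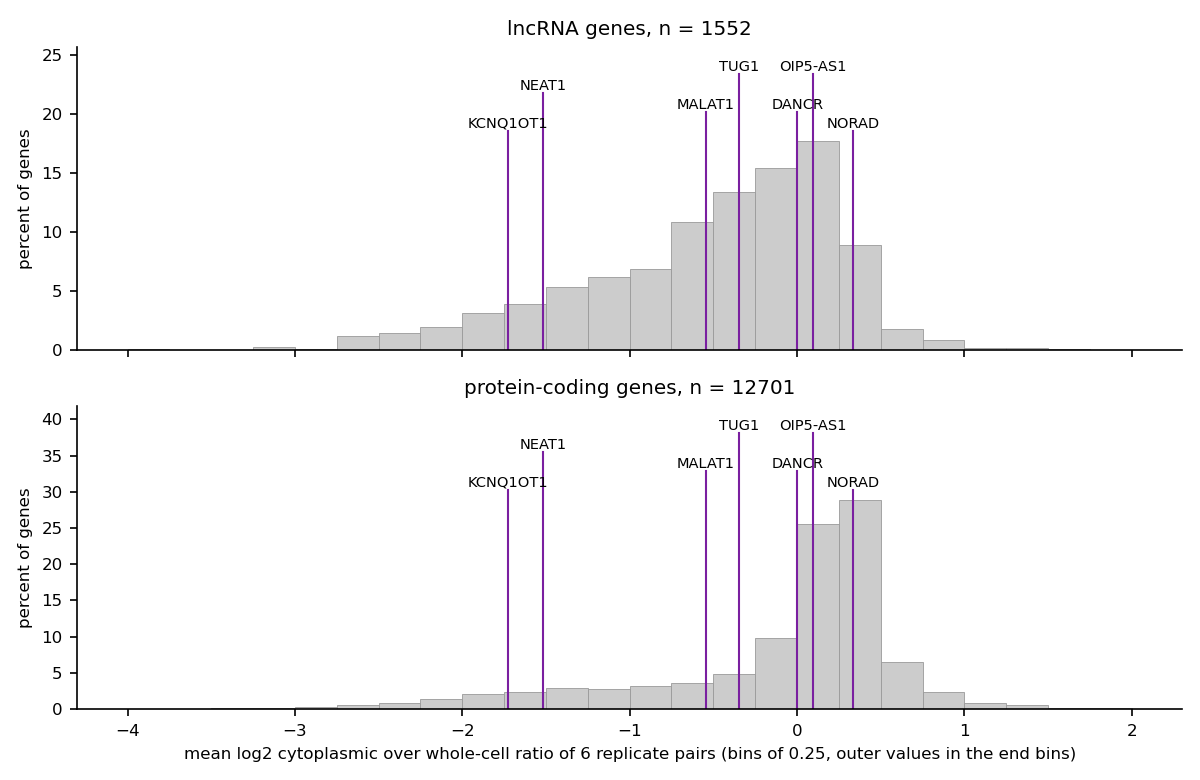
Distribution of the mean log2 cytoplasmic over whole-cell ratio (horizontal axis, over all 6 pairs) as the percent of genes in each bin (vertical axis) for 1552 lncRNA genes and 12701 protein-coding genes, with the 7 members marked. The lncRNA distribution is shifted to lower ratios (median -0.33 against 0.17), KCNQ1OT1 and NEAT1 lie in its lower tail and NORAD lies above its bulk.

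The scale moved with the normalization: the median log2 ratio of all genes was 0.13 with trimmed-mean (TMM) factors, 0.05 with library totals and 0.21 with DESeq2 size factors. In mean over all 6 pairs, MALAT1, NEAT1, KCNQ1OT1 and TUG1 were below that TMM median, as were OIP5-AS1 and DANCR by less, and NORAD was above it. With library totals 6263 of 8146 calls over all genes in WT-res were lower in cytoplasmic RNA, against 5947 of 9135 with TMM, and in ΔRS-res 6969 of 10084 against 6407 of 10929. The signs of OIP5-AS1 and DANCR relative to 0 changed between scalings, and no direction was drawn for them.

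KCNQ1OT1 (ENSG00000269821, GRCh38 chr11:2597308-2700003, minus strand) is represented in the table by 1 unspliced transcript of 91667 nt. Its whole-cell level was 28.4, 27.8 and 28.6 CPM in WT-res and 21.1, 24.8 and 22.2 CPM in ΔRS-res. In the cytoplasm it was at 7.93, 8.56 and 6.39 CPM in WT-res and at 8.18, 8.94 and 6.21 CPM in ΔRS-res. Every cytoplasmic library was below every whole-cell library. How many of all genes had fractions separated in this way was not counted. Nothing is therefore drawn from such a separation here or for NEAT1, TUG1 and NORAD below. The log2 difference between fractions was -1.90 (SE 0.127, adjusted p = 2.35e-05) in WT-res and -1.54 (SE 0.143, adjusted p = 9.14e-05) in ΔRS-res. These and the following gene tests used edgeR's quasi-likelihood test on all genes with Benjamini-Hochberg adjustment, with a call at an adjusted p under 0.05. Of all genes tested, 22.4% were called lower and 12% higher in cytoplasmic RNA of WT-res, and 24.1% and 17% in ΔRS-res. Among the members 3 of 7 were called lower and 1 of 7 higher in each line. Counts on KCNQ1, which runs on the opposite strand across the locus, came to 8.35% of those of KCNQ1OT1, and their reads cannot be told apart if the counting ignored strand.

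NEAT1 (ENSG00000245532, chr11:65422774-65445540, plus strand) was at 280, 240 and 328 CPM in WT-res whole-cell RNA and at 129, 80.9 and 86.8 CPM in the cytoplasm. In ΔRS-res it was at 221, 207 and 305 CPM in whole-cell RNA and at 79.9, 74.7 and 105 CPM in the cytoplasm. The fractions did not overlap in either line. The log2 difference was -1.52 (SE 0.185, adjusted p = 5.59e-04) in WT-res and -1.49 (SE 0.175, adjusted p = 3.34e-04) in ΔRS-res. NEAT1 and KCNQ1OT1 were also called in WT-res without the whole-cell library labelled WT-res replicate 3, where NEAT1 fell by 1.43 (adjusted p = 0.00109) and KCNQ1OT1 by 1.91 (adjusted p = 5.12e-05) on the log2 scale.

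MALAT1 (ENSG00000251562, chr11:65497640-65508073, plus strand) lies beside NEAT1 and behaved less uniformly. Its whole-cell level was 1616, 1641 and 3075 CPM in WT-res and 1299, 1563 and 2040 CPM in ΔRS-res. Its cytoplasmic level was 1783, 993 and 1110 CPM in WT-res and 1152, 1025 and 1519 CPM in ΔRS-res. The highest whole-cell value was in the whole-cell library labelled WT-res replicate 3, the highest cytoplasmic value was in WT-res replicate 1, and the fractions overlapped in both lines. The log2 difference was -0.71 (SE 0.289, adjusted p = 0.0936) in WT-res and -0.40 (SE 0.191, adjusted p = 0.135) in ΔRS-res, below the threshold. It was lower in 5 of 6 pairs. Without the whole-cell library labelled WT-res replicate 3, the WT-res difference was -0.36 (adjusted p = 0.237). In ΔRS-res, where replicate numbers pair the libraries, the edgeR fit with a replicate block called MALAT1 lower, by -0.40 (adjusted p = 0.00171). That fit called 5 of 7 members in place of 4, and 56.5% of all genes in place of 41.1%. The antisense gene TALAM1 had 0.659% of the counts of MALAT1.

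**Figure D3:**
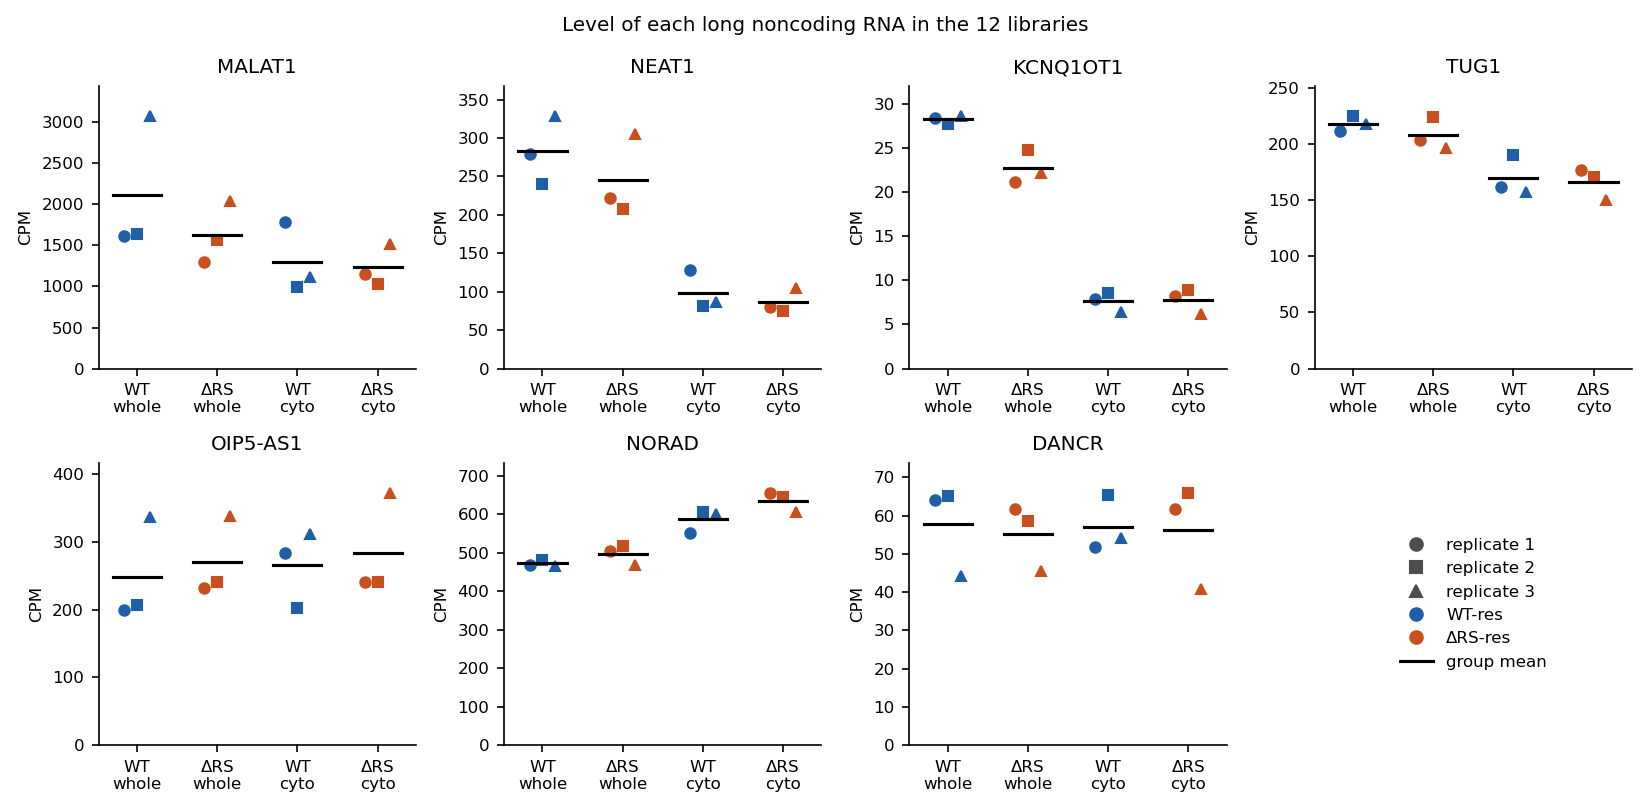
CPM (vertical axes, linear and starting at 0) of the 7 members in each of the 12 libraries, by line and fraction, with a symbol for each replicate and a bar at the group mean. NEAT1, KCNQ1OT1 and TUG1 lie lower and NORAD higher in the cytoplasmic libraries of both lines, whereas MALAT1, OIP5-AS1 and DANCR overlap between fractions.

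TUG1 (ENSG00000253352, chr22:30969245-30979395, plus strand) was at 212, 225 and 218 CPM in WT-res whole-cell RNA and at 162, 190 and 157 CPM in the cytoplasm. In ΔRS-res it was at 204, 224 and 197 CPM in whole-cell RNA and at 177, 171 and 150 CPM in the cytoplasm. The fractions did not overlap in either line, although the shift was small. The log2 difference was -0.37 (SE 0.0995, adjusted p = 0.0239) in WT-res and -0.32 (SE 0.088, adjusted p = 0.0205) in ΔRS-res. With DESeq2 size factors the call was lost in both lines, at log2 differences of -0.30 and -0.26, and it was lost in 4 of 6 fits that each left out 1 library in WT-res and in 2 of 6 in ΔRS-res.

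NORAD (ENSG00000260032, chr20:36045618-36051018, minus strand) is an unspliced RNA of 5401 nt. It was at 468, 481 and 466 CPM in WT-res whole-cell RNA and at 551, 606 and 601 CPM in the cytoplasm. In ΔRS-res it was at 504, 517 and 469 CPM in whole-cell RNA and at 655, 644 and 604 CPM in the cytoplasm. Every cytoplasmic value was above every whole-cell value of its line. The log2 difference was 0.31 (SE 0.0871, adjusted p = 0.0281) in WT-res and 0.36 (SE 0.0745, adjusted p = 0.00626) in ΔRS-res. In WT-res the call was lost with library totals (0.23), with factors from protein-coding genes (0.19) and with no filter on low counts (0.29), and in 4 of 6 fits that each left out 1 library. Without the whole-cell library labelled WT-res replicate 3, the WT-res difference was 0.27 (adjusted p = 0.046) for NORAD and -0.39 (adjusted p = 0.0287) for TUG1.

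NORAD is the member whose sequence is densest in the Pumilio motif TGTANATA, searched on the sense strand of each member's leading transcript. It holds 15 matches, or 2.777 per kb, a density reached by 0.055% of 27468 lncRNA transcripts of at least 1000 nt in GENCODE 44. One or more matches were found in 16.38% of those transcripts. NEAT1-202 (22743 nt) holds 6, KCNQ1OT1 9, TUG1-217 2 and OIP5-AS1-201 1, and the letters do not occur in MALAT1-202 or DANCR-201. Matches 4 and 5, 9 and 10, and 12 and 13 lie so close that each window of such a pair holds both matches. Of the 15 NORAD windows, 4 are shown as examples of the motif's recurrence along the RNA. They are read from GRCh38 on the minus strand, with only the named match in capitals:
NORAD match 1 (chr20:36050182-36050211): tggaaggcctgTGTATATAatatgaaaaag
NORAD match 4 (chr20:36049501-36049530): ttacttatctgTGTATATAgtgtacataaa
NORAD match 11 (chr20:36047971-36048000): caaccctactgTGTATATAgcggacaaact
NORAD match 12 (chr20:36047668-36047697): ttactgtgctgTGTATATAgtgtatataag

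The mRNA of PUM2, an RNA-binding protein of the family that NORAD is known to bind, was higher in the cytoplasm, by 0.37 (adjusted p = 0.014) on the log2 scale in WT-res and by 0.38 (adjusted p = 0.00263) in ΔRS-res.

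OIP5-AS1 (ENSG00000247556, chr15:41283958-41322392, plus strand) was at 200, 207 and 337 CPM in WT-res whole-cell RNA and at 284, 203 and 312 CPM in the cytoplasm. In ΔRS-res it was at 232, 241 and 338 CPM in whole-cell RNA and at 240, 240 and 373 CPM in the cytoplasm. The libraries of replicate 3 were high in both lines and both fractions, and the fractions overlapped. The log2 difference was 0.10 (SE 0.223, adjusted p = 0.746) in WT-res and 0.08 (SE 0.206, adjusted p = 0.781) in ΔRS-res. Counts on OIP5, on the opposite strand, came to 5.52% of those of OIP5-AS1.

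DANCR (ENSG00000226950, chr4:52712325-52723623, plus strand) moved between libraries in the opposite sense. It was at 64.1, 65.0 and 44.1 CPM in WT-res whole-cell RNA and at 51.9, 65.3 and 54.0 CPM in the cytoplasm. In ΔRS-res it was at 61.6, 58.5 and 45.4 CPM in whole-cell RNA and at 61.8, 66.0 and 40.8 CPM in the cytoplasm. The 5 libraries with the highest OIP5-AS1, namely the replicate 3 libraries of all 4 groups and WT-res cytoplasmic replicate 1, were the 5 with the lowest DANCR. The log2 difference of DANCR between fractions was -0.03 (SE 0.173, adjusted p = 0.924) in WT-res and 0.03 (SE 0.19, adjusted p = 0.925) in ΔRS-res. Without the whole-cell library labelled WT-res replicate 3, the WT-res difference was -0.21 (adjusted p = 0.212) for DANCR and 0.36 (adjusted p = 0.124) for OIP5-AS1.

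Levels were compared between genes only per transcript length, as TPM, in which each count is divided by transcript length and the library is scaled to a fixed sum. In WT-res whole-cell RNA MALAT1 was at 450 ± 163 TPM (SD, n = 3), NORAD at 122, DANCR at 77.3, TUG1 at 52.5, NEAT1 at 50.5, OIP5-AS1 at 45.0 and KCNQ1OT1 at 0.432. The most and the least abundant member were thus both RNAs known for nuclear roles.

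Isoforms of a gene that was even between fractions were not themselves even. Of the 72 transcripts, 58 passed the filter on low counts (mean above 2) in each line. In WT-res 9 were called lower and 1 higher in the cytoplasm at an adjusted p under 0.05 in the transcript-level fit, and in ΔRS-res 10 and 1. Over all transcripts the called shares were 12.5% lower and 6.77% higher in WT-res and 12.4% and 7.65% in ΔRS-res. The transcripts called lower in both lines were DANCR-203, NEAT1-202, OIP5-AS1-203, OIP5-AS1-204, TUG1-206, TUG1-216 and the single KCNQ1OT1 transcript, and NORAD-201 was called higher in both. DANCR-202 and TUG1-214 were called lower in WT-res, and NEAT1-205, NEAT1-207 and OIP5-AS1-207 in ΔRS-res, with no test of the difference between lines at the transcript level.

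DANCR-203 showed the clearest split. It had 1191, 1647 and 1045 counts in WT-res and 1184, 1128 and 1101 in ΔRS-res whole-cell RNA, against 139, 270 and 179 and 172, 248 and 149 in the cytoplasm. It made up 17.5 to 21.9% of the counts of DANCR in whole-cell RNA and 2.39 to 3.45% in the cytoplasm. The spliced DANCR-201 took 41.1 to 46.8% and 56.1 to 63.3%, respectively. These are shares of counts, which are larger for longer transcripts. Per transcript length DANCR-203 made up 3.59% of DANCR in whole-cell RNA of WT-res and 3.16% in ΔRS-res. In the cytoplasm its share per length was 0.432% and 0.403%. The log2 difference of DANCR-203 was -2.66 (SE 0.262, adjusted p = 0.00329) in WT-res and -2.57 (SE 0.22, adjusted p = 0.00124) in ΔRS-res, and 4.84% and 5.00% of the lncRNA transcripts tested were lower. DANCR-201 differed by 0.57 (adjusted p = 0.0599) and 0.52 (adjusted p = 0.0958), below the threshold.

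DANCR-203 runs through intron 2 of DANCR-201 (chr4:52712960-52713493, 534 nt) and on past its end, so that it is 6065 nt long in 2 exons against 987 nt in 3. TUG1-216 runs through intron 1 of TUG1-217 (chr22:30971780-30972854, 1075 nt) and TUG1-206 through its intron 2 (chr22:30973588-30975169, 1582 nt). The exon and intron boundaries that these transcripts leave unspliced are shown on the plus strand of GRCh38, with exon bases of the spliced transcript in capitals:
DANCR intron 2 start (chr4:52712950-52712979): CTTAGCGCAGgtatgttcctagccttgagc
DANCR intron 2 end (chr4:52713474-52713503): taaaacttttctttctatagGTTGACAACT
TUG1 intron 1 start (chr22:30971770-30971799): GTGAATTATGgtacttgccattttccaaaa
TUG1 intron 1 end (chr22:30972835-30972864): tttgtccctgccccttctagTCCTGTGCCT
TUG1 intron 2 start (chr22:30973578-30973607): ATACATCAAGgtagaacctctatggtaaat
TUG1 intron 2 end (chr22:30975150-30975179): acctattttttgtatttcagCATTTTGTGA

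TUG1-216 held 21.6 to 28.8% of the counts of TUG1 in whole-cell RNA and 13.1 to 17.1% in the cytoplasm. Its log2 difference was -0.92 (SE 0.128, adjusted p = 0.00739) in WT-res and -0.90 (SE 0.0912, adjusted p = 0.00202) in ΔRS-res. TUG1-206 held 12.8 to 14.9% and 9.75 to 11.5%, and differed by -0.58 (adjusted p = 0.0179) and -0.60 (adjusted p = 0.00664). TUG1-217, in which both introns are removed, held 30.3 to 35.8% and 36.7 to 41.5%, and differed by 0.03 (adjusted p = 0.922) and 0.07 (adjusted p = 0.744).

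**Figure D4:**
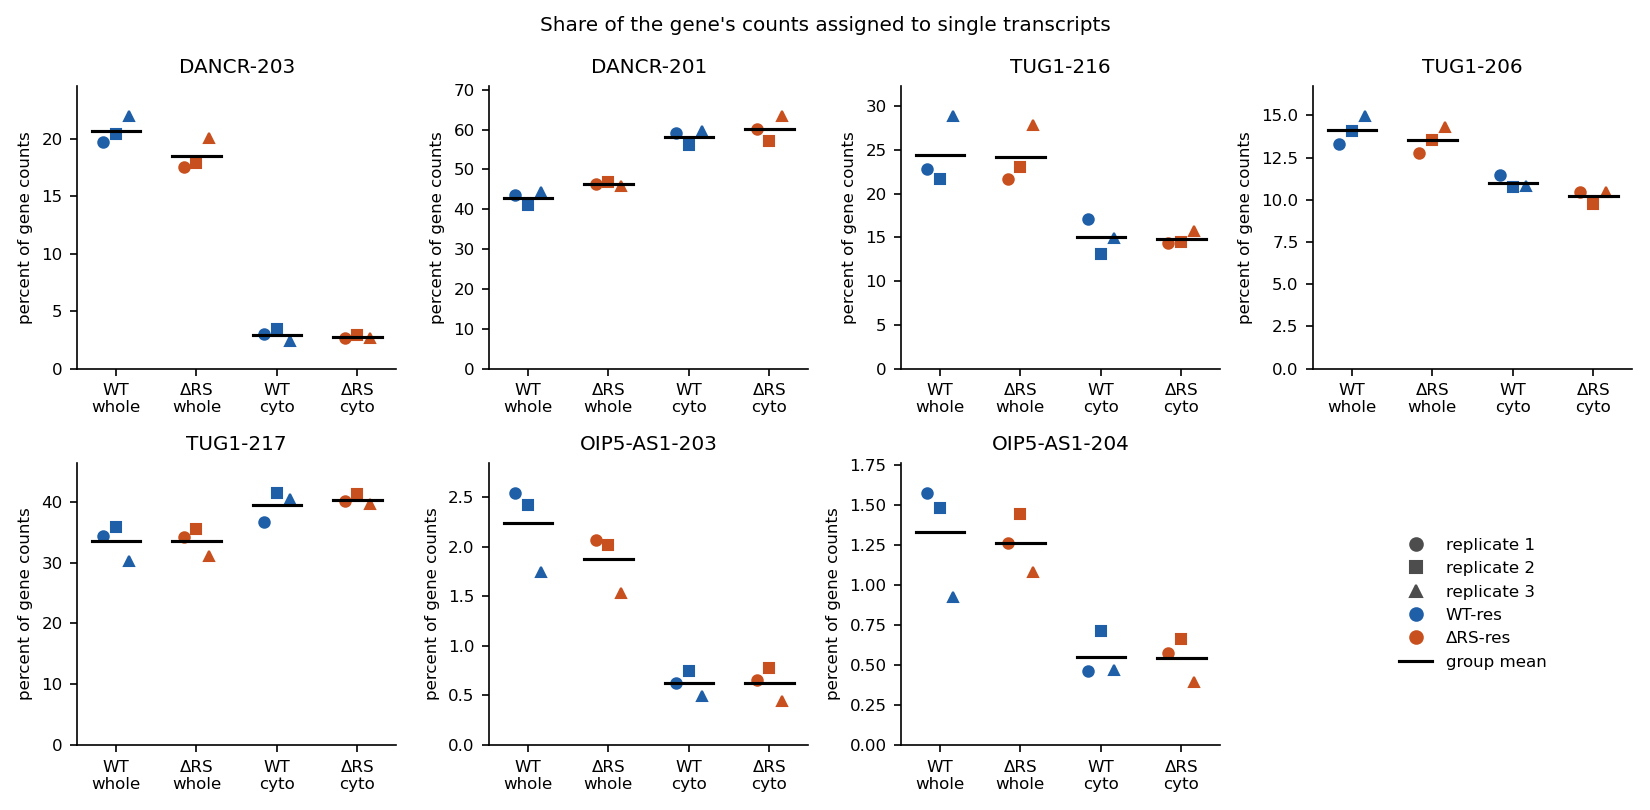
Share of its gene's counts (percent, vertical axes, starting at 0) of DANCR, TUG1 and OIP5-AS1 isoforms in each whole-cell and cytoplasmic library, with a bar at the group mean. Shares are not scaled by transcript length. DANCR-203 falls from 17.5 to 21.9% in whole-cell RNA to 2.39 to 3.45% in the cytoplasm, and TUG1-216 from 21.6 to 28.8% to 13.1 to 17.1%.

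Of the minor OIP5-AS1 isoforms, 203 and 204 were lower in both lines under a gene that was not called. OIP5-AS1-203 held 1.53 to 2.54% of the gene's counts in whole-cell RNA and 0.448 to 0.772% in the cytoplasm, with log2 differences of -1.57 (adjusted p = 0.00329) and -1.40 (adjusted p = 0.0019). OIP5-AS1-204, annotated with 3 exons and 3430 nt, differed by -0.99 (adjusted p = 0.0108) and -1.04 (adjusted p = 0.00764). OIP5-AS1-201, which held 94.3 to 98.6% of the counts, differed by 0.30 (adjusted p = 0.467) and 0.26 (adjusted p = 0.533).

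Without the whole-cell library labelled WT-res replicate 3, 10 member transcripts were called in WT-res. This count was not set against the share of all transcripts called in that fit. The difference was then -2.79 (adjusted p = 0.00879) for DANCR-203, -0.80 (adjusted p = 0.0135) for TUG1-216, -0.55 (adjusted p = 0.0425) for TUG1-206, -1.50 (adjusted p = 0.0113) for OIP5-AS1-203 and 0.58 (adjusted p = 0.116) for OIP5-AS1-201.

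Within a replicate pair, the log2 ratio of DANCR-203 was below that of DANCR-201 by a mean of -3.19 ± 0.26 (SD, 6 pairs), and lower in 6 of 6. For OIP5-AS1-203 against OIP5-AS1-201 the difference was -1.76 ± 0.22, and for OIP5-AS1-204 -1.29 ± 0.31. For TUG1-216 and TUG1-206 against TUG1-217 it was -0.95 ± 0.29 and -0.64 ± 0.21, in 6 of 6 pairs for each. The difference was less uniform for NEAT1-202 against NEAT1-207, at -0.49 ± 0.68, lower in 5 of 6 pairs. These pairs of isoforms were chosen after their values were seen, so no test was made. Without the pair that holds the whole-cell library labelled WT-res replicate 3, the DANCR difference was -3.10 and the TUG1-216 difference -0.87. Over all genes, transcripts annotated with a retained intron had median log2 differences of -1.29 in WT-res and -1.10 in ΔRS-res, against 0.29 and 0.27 for protein-coding transcripts and -0.26 and -0.24 for lncRNA transcripts.

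NEAT1-202, the long form, held 61.4 to 87.2% of the counts of NEAT1 in whole-cell RNA, with the highest shares in the replicate 3 libraries of both lines (87.2% in WT-res and 82.6% in ΔRS-res), and 56.4 to 72.3% in the cytoplasm. It differed by -1.62 (adjusted p = 0.0084) in WT-res and -1.40 (adjusted p = 0.0254) in ΔRS-res. The short NEAT1-207 differed by -0.85 (adjusted p = 0.227) and -1.12 (adjusted p = 0.00926). Reads of the short form lie within the long form, so their split is an estimate of the authors' counting. Per transcript length the order was reversed. NEAT1-202 then held 27.2% of NEAT1 in whole-cell RNA of WT-res and 23.1% in ΔRS-res, against 39.4% and 41.0% for NEAT1-207. In the cytoplasm NEAT1-202 held 18.4% and 20.9% per length, and NEAT1-207 44.6% and 46.8%. MALAT1-202 held 73.4 to 79.7% of the counts of MALAT1 in all 12 libraries. The other transcripts that held at least 5% of their gene's counts in the mean of a group, DANCR-213, TUG1-210, TUG1-215, MALAT1-201, MALAT1-214 and NEAT1-209, were not called between fractions in either line. Of these DANCR-213 was the most abundant by share, at 26.2 to 28.8% in whole-cell RNA and 29.9 to 33.9% in the cytoplasm.

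The lines were compared to ask whether loss of the RS domain changed the level or distribution of these RNAs. No member was called in whole-cell RNA (0 of 7, with 0% of 26793 genes called by edgeR at an adjusted p under 0.05, 3360 genes at an unadjusted p under 0.05, and 1062 genes by DESeq2). The 3 WT-res values of KCNQ1OT1, 27.8 to 28.6 CPM, were all above its 3 ΔRS-res values, 21.1 to 24.8 CPM. The share of all genes whose lines were separated in this way was not counted, so nothing is drawn from it. The log2 difference of ΔRS-res against WT-res was -0.33 (SE 0.0857), with an unadjusted p of 0.00586 and an adjusted p of 0.213 from edgeR. The replicate numbers pair the whole-cell libraries, and with a replicate block the same difference had an adjusted p of 0.0372, in a fit that called 2137 genes. The DESeq2 Wald test gave an adjusted p of 0.0374. Without the whole-cell library labelled WT-res replicate 3 and without the block, the difference was -0.33 (adjusted p = 0.12), in a fit that called 552 genes. With the block and without that library, an alternative chosen after seeing the data, 4442 genes and 3 members were called, KCNQ1OT1 (-0.31, adjusted p = 0.0359), NEAT1 (-0.29, adjusted p = 0.0118) and OIP5-AS1 (0.20, adjusted p = 0.0186). The 75 genes within 5 Mb of KCNQ1OT1 had a median log2 difference of 0.07 between the lines.

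For the other members the whole-cell log2 differences of ΔRS-res against WT-res ranged from -0.38 (SE 0.271, adjusted p = 0.643) for MALAT1 to 0.12 (SE 0.226, adjusted p = 0.897) for OIP5-AS1. Without the whole-cell library labelled WT-res replicate 3 these became -0.01 (adjusted p = 0.973) and 0.39 (adjusted p = 0.23), and DANCR went from -0.08 to -0.25 (adjusted p = 0.337). TUG1 (-0.08, SE 0.0753) and NORAD (0.06, SE 0.0697) were measured with the smallest errors, and neither passed the threshold (adjusted p = 0.748 and 0.787).

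**Figure D5:**
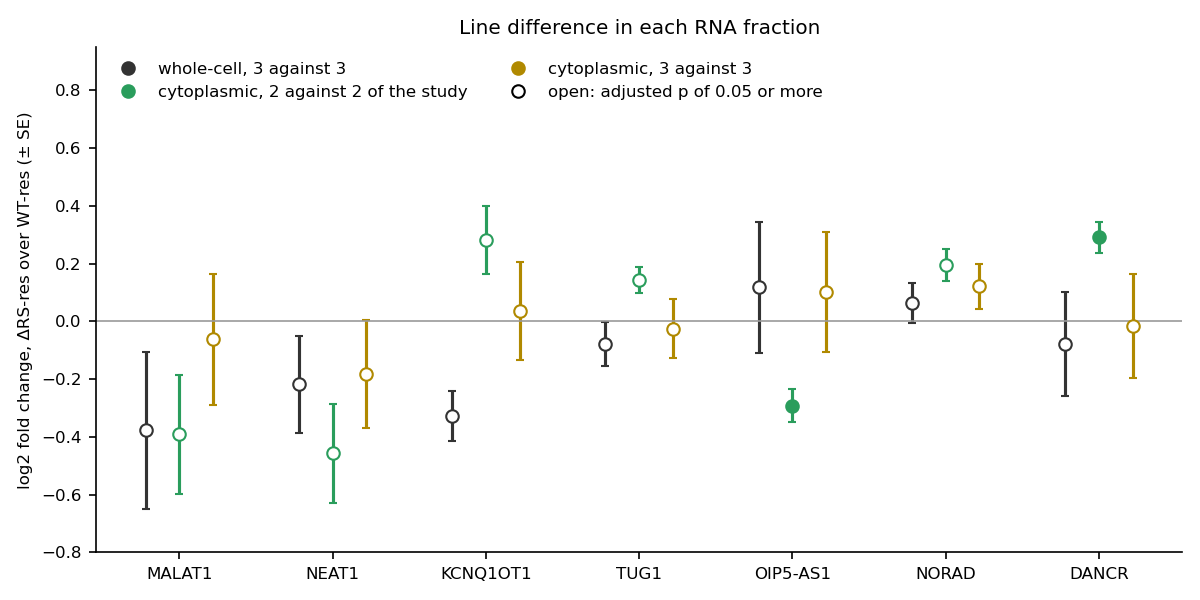
Log2 difference of ΔRS-res against WT-res with its SE (vertical axis) for the 7 members in whole-cell RNA, in the 4 cytoplasmic libraries kept by the study and in all 6 cytoplasmic libraries, with filled points at an adjusted p under 0.05. OIP5-AS1 and DANCR lie on opposite sides of 0 in the 4 libraries (-0.29 and 0.29) and near 0 in all 6 (0.10 and -0.02).

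In cytoplasmic RNA the outcome depended on which libraries entered. The study compared WT-res replicates 1 and 3 with ΔRS-res replicates 1 and 2. In those 4 libraries OIP5-AS1 was lower in ΔRS-res, by -0.29 (SE 0.0555, adjusted p = 0.015), and DANCR higher, by 0.29 (SE 0.0534, adjusted p = 0.0132), 2 of 7 members against 22.1% of all genes called. OIP5-AS1 was at 284 and 312 CPM in WT-res against 240 and 240 CPM, and DANCR at 51.9 and 54.0 against 61.8 and 66.0 CPM. In the other two libraries the order was the opposite, with OIP5-AS1 at 203 CPM in WT-res replicate 2 and 373 CPM in ΔRS-res replicate 3, and DANCR at 65.3 and 40.8 CPM. Over all 6 libraries OIP5-AS1 differed by 0.10 (SE 0.208, adjusted p = 0.932) and DANCR by -0.02 (SE 0.181, adjusted p = 0.991). No member was called there, with 1.53% of all genes called. With 1 of the 4 libraries left out, the difference ranged from -0.38 to -0.22 for OIP5-AS1 and from 0.24 to 0.34 for DANCR. Each of these fits leaves 1 library in a line, which is assumed to vary like those of the other line. Their calls are therefore not read.

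Whether the fraction difference itself differed between lines was tested as the interaction of fraction and line. No member was called (edgeR, adjusted p = 1 for each, unadjusted p of at least 0.106, with 0.00375% of all genes called, and none by DESeq2), and the ranges of the ratios overlapped between lines for each member. The interaction was 0.34 (SE 0.196) for KCNQ1OT1, 0.30 (SE 0.407) for MALAT1, 0.04 (SE 0.0937) for NORAD and 0.03 (SE 0.127) for TUG1 on the log2 scale, so that the error was small for NORAD and TUG1 and wide for MALAT1.

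At the transcript level the study's own threshold was used for the lines, an unadjusted p under 0.05 and a log2 difference beyond 0.5. It marked 2 member transcripts in whole-cell RNA, against 5.25% of all transcripts, 3 in the 4 cytoplasmic libraries against 8.78%, and 0 in all 6 against 4.06%. The first 2 were TUG1-218 (1.48, adjusted p = 0.676) and TUG1-214, a rare isoform with 51, 136 and 249 counts in WT-res whole-cell RNA, 0 in all 3 ΔRS-res whole-cell and all 3 WT-res cytoplasmic libraries, and 9 in 1 ΔRS-res cytoplasmic library. Against a floor of 3 counts per library, TUG1-214 was at least 49.2-fold lower in ΔRS-res whole-cell RNA, with an adjusted p of 0.537 in the transcript fit. Without the WT-res library of 249 counts, replicate 3, it was at least 30.7-fold lower, and 4 member transcripts were marked, among them TUG1-214 but not TUG1-218 (unadjusted p of 0.0922 in edgeR). With the replicate block 1 member transcript was marked in place of 2. The shares of all transcripts marked without that library or with the block were not set beside these counts. In the 4 cytoplasmic libraries OIP5-AS1-208 (1.91), MALAT1-213 (-0.56) and TUG1-211 (0.70) were marked. None of the 3 passed an adjusted p under 0.05 in edgeR (p of 0.258 to 0.34 after adjustment).

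The median log2 difference between fractions over all genes tested was -0.06 in both lines, and that of the members -0.37 in WT-res and -0.32 in ΔRS-res. Of 12 further lncRNAs known for nuclear roles 10 were tested, and 5 were lower in the cytoplasm in each line, with list medians of -0.49 and -0.21, against -0.56 and -0.50 over all lncRNA genes tested, of which 26.8% and 28.9% were called lower. MIAT (-2.33 and -2.49 in WT-res and ΔRS-res) and FTX (-1.26 and -0.97) were among them. In ΔRS-res 2 were higher, JPX by 0.51 and FIRRE by 0.19. Of 12 cytoplasmic or small nucleolar RNA host lncRNAs, with medians of 0.19 and 0.03, 2 were lower in each line, SNHG12 (-1.45 and -1.25) and SNHG1 (-0.53 and -0.56), while SNHG16 was higher (0.44 and 0.32). SNHG29 was higher in WT-res (0.38, adjusted p = 0.0431), with 0.21 in ΔRS-res (adjusted p = 0.269), and the difference between lines was not called for any gene of the list. In the 4 cytoplasmic libraries 9 of these 12 were lower and 1 higher in ΔRS-res, among them GAS5 (-1.02), where 22.1% of all genes were called either way, but 0 of 12 were called over all 6.

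The mRNAs of proteins that work with the members were read against all protein-coding genes, whose median log2 difference was 0.14 in WT-res and 0.12 in ΔRS-res, with 18.7% and 20.4% called lower and 18.8% and 26.3% called higher. Of 8 paraspeckle proteins (medians 0.18 and 0.15) 0 were called in WT-res and 2 were higher in ΔRS-res, PSPC1 by 0.30 and HNRNPK by 0.30. Of 8 nuclear speckle proteins (medians 0.10 and 0.21) 1 was lower in WT-res, the splicing factor SRSF5 (-0.48, adjusted p = 0.0459). In ΔRS-res 1 was lower, SRRM2 (-0.42, adjusted p = 0.0326), and 2 were higher, PNN and SF3B1, by 0.42 and 0.40. Of 8 RNA processing and binding factors (medians 0.30 and 0.29) 4 were higher in WT-res and 6 in ΔRS-res, among them ELAVL1, an RNA-stabilising protein, by 0.41 and 0.35. Of 6 imprinted neighbours of KCNQ1OT1 (medians -0.60 and -0.19), SLC22A18 (-2.12 and -2.57) and CD81 (-1.72 and -1.90) were lower in both lines, PHLDA2 and TSSC4 were higher in ΔRS-res by 0.42 and 0.35, and 0 of 6 were called between lines in whole-cell RNA.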

How the data were processed

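Per the labels and the study's methods, rRNA-depleted paired-end libraries were trimmed with Trim Galore, aligned to GRCh38 with STAR and quantified with RSEM. The authors deposited expected counts per transcript, whose strand setting and tool versions are not given in the sources used here. Expected counts were summed per gene and rounded. Genes and transcripts with a mean count above 2 were tested with edgeR 4.0.16 (quasi-likelihood, TMM factors, R 4.3.3), with DESeq2 1.42.0 as an alternative. Fractions were compared within each line, lines within each fraction, and their interaction over 12 libraries. CPM used a prior count of 0.5 on the log2 scale, and TPM was computed from the deposited transcript values. Without a spike-in, ratios are relative to the rest of the library. Alternatives were other scalings, filters, DESeq2, a replicate block and each library left out. Gene models and sequence came from GENCODE 44 and GRCh38. The test scripts were tested on simulated data.

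Replicates came from 3 consecutive passages of 1 line each, so p-values measure the spread between these samples. No 2 libraries of a group agreed within sampling noise (lowest chi-square per gene 15.8). Same-numbered libraries of the 2 lines deviated together in whole-cell RNA (r = 0.569, 0.581 and 0.692 across 14938 genes), as did the 2 fractions of ΔRS-res (0.554, 0.484 and 0.801), and these were taken as paired by the data. Those of the fractions of WT-res (-0.164, 0.599 and 0.488) and of the lines in cytoplasmic RNA (-0.448, 0.635 and 0.463) were not. Genes are not independent replicates in these correlations.

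The members, lists and tests were chosen with earlier results of these data known. Named were the 7 members, their transcripts with at least 5% of the gene's counts in any group or called in a comparison, up to 4 genes of each comparison list (the 2 with the largest called change in each direction), and the 3 genes whose log2(CPM + 1) correlated best with each member. GAS5 and RN7SK were named outside that rule, and 1 gene of a list is not reported here.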

Additional observations from a re-analysis of the deposited data

How the results depend on the processing

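Of 307 member values under other settings, 274 kept their direction and their side of the threshold, 13 gained a call, 9 lost one and 11 changed sign. With 1 library left out it was 206, 6, 13 and 55 of 280. The cause was not tested except where fewer samples were fitted. Signs changed as follows. For the fraction difference in WT-res they were DANCR at 0.041 with DESeq2 size factors and 0.041 in the DESeq2 Wald test, and OIP5-AS1 at -0.016 with protein-coding TMM factors. In ΔRS-res OIP5-AS1 and DANCR were at -0.013 and -0.061 with library totals and at -0.031 and -0.079 with protein-coding TMM factors. DANCR between lines in all 6 cytoplasmic libraries was 0.0034 with library totals, and the interaction was 0.0050 for OIP5-AS1 without a filter and -0.041 for MALAT1 and -0.27 for NEAT1 in the study's 10 libraries.

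Members called in whole-cell RNA between lines rose from 0 to 1 in the DESeq2 Wald test, to 1 with the replicate block, and to 3 with the block and without WT-res whole-cell replicate 3, an alternative chosen after seeing the data. That combination left 2 of 4 gene calls and 0 of 10 transcript calls between the fractions of WT-res. In the 4 cytoplasmic libraries 5 members were called without a filter, in place of 2. This was not set against the share over all genes, so nothing is read from it. Member transcripts between lines in whole-cell RNA went from 2 to 0 with adjusted p, to 1 with DESeq2 and adjusted p (chosen after seeing the data) and to 1 with the block. In the 4 cytoplasmic libraries they went from 3 to 0 with adjusted p, and in all 6 from 0 to 1 without a filter and to 1 with the block. Counts given here without the share over all genes or transcripts of that fit are not read as results. The replicate block changed no other gene call of a member than those of MALAT1 and KCNQ1OT1, and for the fractions of WT-res, where numbers are not paired by the data, it kept 4 of 7 called. Over all transcripts of WT-res, 14294 of 27205 calls were lower in the cytoplasm with DESeq2 size factors, against 16138 of 24861.

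With 1 library left out, the members called ranged from 2 to 4 (fractions, WT-res) and from 3 to 5 (fractions, ΔRS-res). The 2 came without WT-res whole-cell replicate 1 or 2 or cytoplasmic replicate 3. Member transcripts ranged from 1 to 4 (lines, whole-cell), 1 to 12 (4 cytoplasmic libraries, 12 without WT-res replicate 3) and 0 to 2 (all 6). Each of these fits of the 4 cytoplasmic libraries leaves 1 library in a line, so their counts are listed but not read. The other counts with 1 library left out were not set against the share over all genes or transcripts, and nothing is drawn from them. Values that changed sign with 1 library left out ranged as follows. The fraction difference of DANCR ranged from -0.21 to 0.062 in WT-res and from -0.10 to 0.21 in ΔRS-res, and that of OIP5-AS1 from -0.044 to 0.36 and from -0.17 to 0.27. The interaction ranged from -0.084 to 0.23 for DANCR, from -0.077 to 0.60 for MALAT1, from -0.15 to 0.25 for NEAT1, from -0.0034 to 0.073 for NORAD, from -0.32 to 0.16 for OIP5-AS1 and from -0.017 to 0.13 for TUG1. Between lines in whole-cell RNA DANCR ranged from -0.25 to 0.045 and OIP5-AS1 from -0.074 to 0.39. In all 6 cytoplasmic libraries the range was -0.15 to 0.17 for DANCR, -0.086 to 0.18 for KCNQ1OT1, -0.24 to 0.23 for MALAT1, -0.34 to 0.041 for NEAT1, -0.14 to 0.24 for OIP5-AS1 and -0.081 to 0.069 for TUG1.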

Other observations

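Genes whose log2(CPM + 1) followed each member most closely over the 12 libraries were found among 14923 genes. The 12 libraries share 2 lines and 2 fractions, and the values are descriptions. KCNQ1OT1 was followed most closely by DPY19L2 (Pearson r = 0.996 over 12 libraries), ENSG00000279342 (0.995) and IFNGR1 (0.994), NEAT1 by GABBR1 (0.993), ENSG00000262691 (0.993) and PDCL3P4 (0.992), and NORAD by SMAD1 (0.992), PPM1D (0.988) and NRDC (0.987). TUG1 was followed by EPM2AIP1 (0.968), THUMPD3-AS1 (0.968) and SH3BP5-AS1 (0.967). MALAT1 was followed by GOLGA8H (0.954), NR2F2-AS1 (0.952) and TALAM1 (0.943), of which TALAM1 is its own antisense partner. OIP5-AS1 was followed by NT5M (0.993), FEZ1 (0.989) and ALDH1L2 (0.989), and DANCR by POLR1C (0.973), AP4S1 (0.967) and PANK2 (0.964). None of the 7 members was among the 3 genes nearest to another member.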
